A study of Mus musculus with 5 samples.

Results

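Eicosanoids are lipid mediators made from arachidonic acid, and the transcripts of 10 genes of their synthesis and breakdown were followed by RNA-seq of 5 populations sorted from mouse BM, with 1 library each. The genes were Pla2g4a, Ptgs1, Ptgs2, Ptges, Alox5, Alox5ap, Lta4h, Ltc4s, Alox15 and Hpgd, all found by symbol among the 23234 genes of the files. They were selected on their levels in these 5 libraries and on how synthesis and degradation enzymes differed after LPS, so those values are a description, without a test.

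All mice were C57BL/6, aged 7 weeks, and carried the +/Ym1Venus genotype, that is, 1 copy of a Venus fluorescence reporter of Ym1, the protein encoded by Chi3l3. 3 libraries came from BM 48 h after intravenous LPS at 100 ug/mouse, namely Ym1+Ly6Chi monocytes (Ly6C+ CD115+ Venus+), Ym1-Ly6Chi monocytes (Ly6C+ CD115+ Venus-) and neutrophils (Ly6G+). The other 2 came from untreated mice, namely naïve monocytes (Ly6C+ CD115+ Venus-) and naïve neutrophils (Ly6G+). A Venus+ monocyte library from untreated mice was not analysed here, so that the Ym1+ library differs from naïve monocytes in both LPS treatment and gate. How many mice each library holds was not found in the labels or methods, and every difference is one between 2 libraries, with no replicate check, no SD and no p-value.

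Levels are FPKM, fragment numbers scaled by transcript length and library size, which allow genes of different length to be compared. A difference is that of log2(FPKM + 1) taken where at least 1 of the pair of libraries reached an FPKM of 1, and a gene was counted as higher or lower when this difference reached 2-fold. From the steps between low FPKM values, the libraries held 44.7% to 100% of the depth of the deepest, the Ym1+ library, with the Ym1- library the shallowest. Of the low values paired with the Ym1+ library, 46.1% to 53.0% stood at ratios of small whole numbers, as whole fragments would give. The rest did not, so that depths and fragment numbers are approximate. An FPKM of 10 for a 2 kb transcript stood for roughly 79.8 to 179 fragments. The 95% intervals given are exact Poisson intervals on fragments estimated in this way, and cover counting error only. Chi3l3 was listed at 1759 FPKM in Ym1+ monocytes, 386 in Ym1- monocytes, 430 in naïve monocytes, 1712 in neutrophils after LPS and 1484 in naïve neutrophils, so that the Venus+ monocytes were well above both Venus- libraries. Of 10 monocyte markers, 9 reached an FPKM of 1 in each monocyte library, and the summed FPKM of 10 neutrophil markers was 1385 to 15902 in monocytes and 304792 to 308639 in neutrophils. A listed 0 need not mean absence, since Actr3, an actin-nucleating gene used by all cells, was listed at 0 in Ym1+ monocytes and at 593 to 824 in the other libraries.

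Cytosolic phospholipase A2 (Pla2g4a) frees arachidonic acid from membranes. The cyclooxygenases (Ptgs1, constitutive, and Ptgs2, inducible) turn it into the prostaglandin precursor that Ptges, a microsomal synthase, converts to prostaglandin E2, and Hpgd, a dehydrogenase, begins the inactivation of prostaglandins. In the other branch, Alox5, helped by its membrane partner Alox5ap, makes leukotriene A4, which Lta4h hydrolyses to leukotriene B4, a neutrophil attractant, and Ltc4s conjugates to glutathione to start the cysteinyl leukotrienes. Alox15 oxygenates arachidonic acid at another position and is known from eosinophils and some macrophages.

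Hpgd, the degradation enzyme, showed larger differences after LPS in monocytes than any synthesis gene that was measured. Hpgd was listed at 47.7 FPKM in naïve monocytes (95% interval 43.4 to 52.3), 1.69 in Ym1- monocytes (0.856 to 3.0), 0.567 in Ym1+ monocytes (0.253 to 1.09), 1.88 in naïve neutrophils (1.24 to 2.73) and 0 in neutrophils after LPS. Only the naïve monocyte library held it at a high level, and both monocyte libraries from LPS-treated mice lay 4 log2 units or more below. Of the 9 synthesis genes, 6 passed the filter on low values in each monocyte comparison with naïve monocytes, and their median difference was -0.29 in Ym1- and 0.06 in Ym1+ monocytes. The plot of levels by library shows the same values for each gene.

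**Figure D1:**
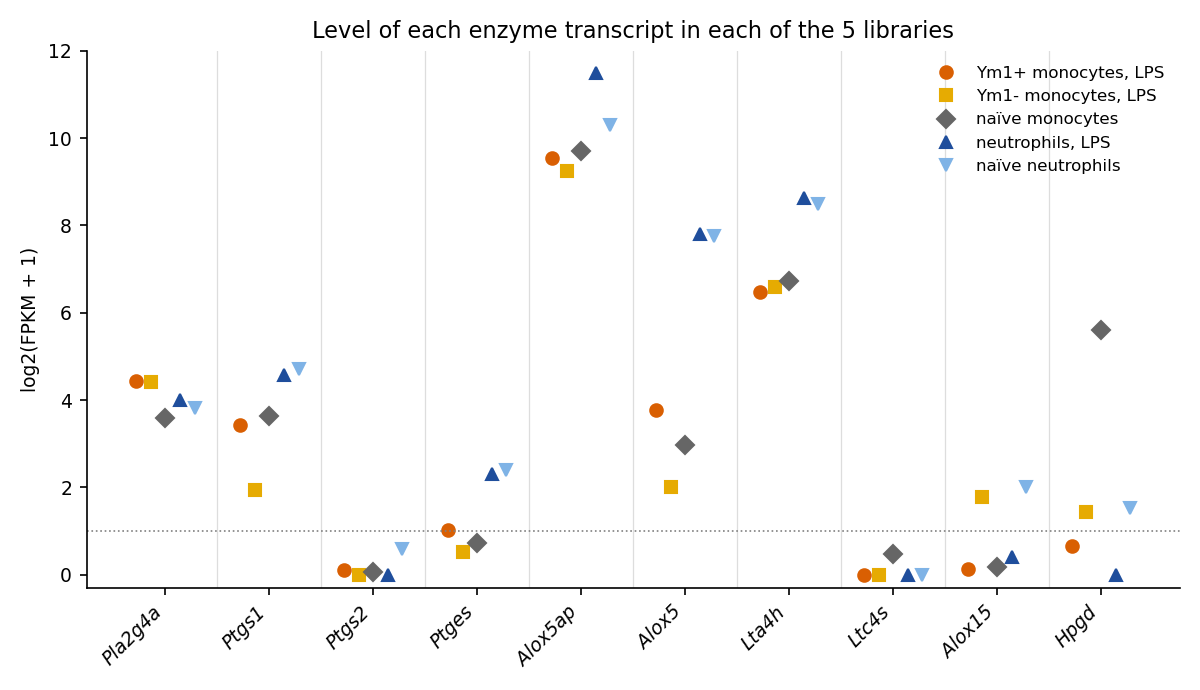
Level of the 10 enzyme transcripts (log2(FPKM + 1), vertical axis) in each of the 5 libraries, 1 point per library and gene; the dotted line marks an FPKM of 1. Hpgd stands at 47.7 FPKM in naïve monocytes and at 1.88 or less elsewhere, while Alox5, Lta4h, Ptgs1 and Ptges are highest in the 2 neutrophil libraries.

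Promoter sequences are shown for Hpgd, the gene highest in naïve monocytes, and for Alox5, Lta4h and Ptgs1, which were all highest in neutrophils, so that their starts can be read side by side. Of the 10 genes, 8 matched the RefSeq promoter table of the GRCm38.p6 assembly, with 9 start windows as Pla2g4a has 2, and Alox5ap and Alox15 were not matched. The FPKM files were made on mm9, so these GRCm38.p6 positions are not those of the files. Each run below is the 250 bases before the annotated start, written from 5′ to 3′ on the gene's strand, with capitals marking GAGGAA or its reverse complement TTCCTC, the core that the myeloid factor PU.1 recognises.
Hpgd (chr8:56294302-56294551, plus strand): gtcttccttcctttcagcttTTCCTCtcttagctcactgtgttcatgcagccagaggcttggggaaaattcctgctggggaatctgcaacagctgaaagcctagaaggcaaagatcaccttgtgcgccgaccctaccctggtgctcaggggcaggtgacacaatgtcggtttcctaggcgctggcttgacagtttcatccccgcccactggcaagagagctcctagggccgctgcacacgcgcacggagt
Alox5 (chr6:116461179-116461428, minus strand): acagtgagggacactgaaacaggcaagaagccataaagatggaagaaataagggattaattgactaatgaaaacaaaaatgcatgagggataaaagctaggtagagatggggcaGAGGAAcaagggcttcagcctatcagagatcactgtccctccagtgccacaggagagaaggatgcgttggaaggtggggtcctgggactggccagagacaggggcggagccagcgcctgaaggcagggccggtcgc
Lta4h (chr10:93453146-93453395, plus strand): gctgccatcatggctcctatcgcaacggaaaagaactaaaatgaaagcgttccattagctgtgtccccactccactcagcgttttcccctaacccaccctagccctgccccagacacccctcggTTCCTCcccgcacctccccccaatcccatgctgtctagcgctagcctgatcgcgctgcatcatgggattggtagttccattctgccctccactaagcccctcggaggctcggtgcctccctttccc
Ptgs1 (chr2:36230176-36230425, plus strand): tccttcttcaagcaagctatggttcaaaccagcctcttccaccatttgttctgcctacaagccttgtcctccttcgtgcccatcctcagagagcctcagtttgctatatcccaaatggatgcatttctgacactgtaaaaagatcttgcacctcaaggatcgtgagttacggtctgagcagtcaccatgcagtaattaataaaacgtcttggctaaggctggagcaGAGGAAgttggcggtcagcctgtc

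Each of the 4 windows held this hexamer once. On the gene's strand it read GAGGAA in Alox5 and Ptgs1, and TTCCTC in Hpgd and Lta4h. Of the 9 windows, 6 held it, those of Ptgs2 and Ptges included, against 23.3% of all 32851 windows of the table. It was singled out from 9 motifs, searched on both strands, after the counts were seen. The GC box (GGGCGG) was in 4 of the 9 windows and 32.7% of all, the TATA box (TATAAA) in 1 and 12.4%, the C/EBP pattern (TTNCNNAA) in 4 and 36.8%, and a RUNX core (TGTGGT) in 2 and 14.0%. None of the 9 windows held the NF-kB pattern, the cAMP response element (TGACGTCA), the interferon-stimulated response element or the AP-1 pattern (TGANTCA), which were in 7.25%, 1.55%, 2.98% and 6.75% of all windows. The hexamer was in the windows of Hpgd and of the neutrophil-high genes alike, and a match of letters is not a binding site.

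In the release step, Pla2g4a was listed at 20.6 FPKM in Ym1+ monocytes, 20.5 in Ym1- monocytes, 11.1 in naïve monocytes, 14.9 in neutrophils after LPS and 13.2 in naïve neutrophils. In FPKM the 2 monocyte libraries after LPS were the highest, but their order against neutrophils after LPS depended on the scaling. Neutrophils minus Ym1+ monocytes, both after LPS, gave -0.44 on the log2 scale, -0.92 with TPM and 0.12 with median-of-ratios scaling. The Ym1+ and Ym1- libraries stood at 1.87 times (95% interval 1.60 to 2.19) and 1.85 times (1.54 to 2.22) the naïve monocyte level. On the log2 scale these were 0.84 and 0.83, short of the 2-fold line. Between Ym1+ and Ym1- monocytes the ratio was 1.01 (0.875 to 1.16). Between neutrophils after LPS and naïve neutrophils it was 1.13 (0.982 to 1.31), so that neither pair could be told apart at this depth.

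Ptgs1 was the more abundant cyclooxygenase transcript. It was listed at 9.76 FPKM in Ym1+ monocytes, 2.81 in Ym1- monocytes, 11.4 in naïve monocytes, 22.9 in neutrophils after LPS and 25.2 in naïve neutrophils. The neutrophil libraries were the highest and the Ym1- library stood apart below the others. Ym1- monocytes had 4.07-fold less than naïve monocytes (95% interval 2.78 to 6.11) and 3.47-fold less than Ym1+ monocytes (2.40 to 5.18), whereas the ratio of Ym1+ to naïve monocytes was 0.854 (0.703 to 1.04). Some platelet and erythroid markers were also lowest in the Ym1- library among the monocytes. Ppbp, Gp1ba and Treml1 were lowest in Ym1+ monocytes instead, each below an FPKM of 1 there. Pf4, a platelet chemokine, was listed at 3.48, 0 and 3.56 FPKM in the Ym1+, Ym1- and naïve libraries, and the globin gene Hba-a1 at 10.3, 2.08 and 12.6. The 8 platelet markers summed to 4.63, 1.34 and 13.8 FPKM in the same order, Pf4 being most of the Ym1+ sum. The part of platelets or red cells in the Ptgs1 values was not tested.

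Ptgs2, the inducible cyclooxygenase, did not reach an FPKM of 1 in any library. It was listed at 0.0727 FPKM in Ym1+ monocytes, 0.0386 in naïve monocytes, 0.498 in naïve neutrophils, and 0 in Ym1- monocytes and in neutrophils after LPS. At most about 19.3 fragments stood behind these values, and no increase at 48 h after LPS was detectable at this depth. In neutrophils the 95% interval was 0.301 to 0.776 in the naïve library and 0 to 0.115 after LPS. The listed level after LPS was thus lower beyond counting error, with both values below the filter. Where both cyclooxygenases were listed above 0, Ptgs1 exceeded Ptgs2 by 50.5-fold in naïve neutrophils, 134-fold in Ym1+ monocytes and 296-fold in naïve monocytes, the last 2 of these on only about 2.89 and 0.964 fragments of Ptgs2, too few to tell from 0.

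Ptges was highest in neutrophils, though low, with 3.94 FPKM in neutrophils after LPS and 4.28 in naïve neutrophils. It was listed at 1.03 in Ym1+ monocytes, 0.435 in Ym1- monocytes and 0.663 in naïve monocytes. The 3 monocyte values lay within overlapping counting intervals (0.708 to 1.44, 0.165 to 0.928 and 0.358 to 1.12). Fragments were estimated with the longest annotated transcript. With the median transcript length the numbers for every member except Hpgd would be smaller, and their intervals wider. In Ym1+ monocytes they would be 5.71 in place of 33.4 for Ptges and 540 in place of 2529 for Lta4h.

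The leukotriene branch held the most abundant of the 10 transcripts. Alox5ap was listed at 744 FPKM in Ym1+ monocytes, 608 in Ym1- monocytes, 831 in naïve monocytes, 2898 in neutrophils after LPS and 1262 in naïve neutrophils. The neutrophil library after LPS was the highest, at 2.30 times naïve neutrophils (95% interval 2.25 to 2.34), and the 3 monocyte libraries lay close together. Lta4h had the same split between cell types without the LPS difference, with 87.8, 95 and 104 FPKM for the Ym1+, Ym1- and naïve monocyte libraries and 395 and 361 in neutrophils after LPS and naïve neutrophils. Its level in neutrophils after LPS was 1.09 times that of naïve neutrophils (1.06 to 1.12).

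Alox5 showed the widest gap between neutrophils and monocytes of the synthesis genes. It was listed at 221 FPKM in neutrophils after LPS and 217 in naïve neutrophils, against 12.6 in Ym1+ monocytes, 6.90 in naïve monocytes and 3.01 in Ym1- monocytes. The 2 neutrophil values could not be told apart at this depth (ratio 1.02, 95% interval 0.982 to 1.05). Ym1+ monocytes held 4.18 times the Ym1- level (3.05 to 5.86) and 1.83 times the naïve level (1.5 to 2.23), and Ym1- monocytes 2.29 times less than naïve monocytes (1.61 to 3.30). On the log2(FPKM + 1) scale this last difference, -0.98, fell just short of the 2-fold line.

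The transcripts of both partners of Alox5 exceeded its own in every library, to different degrees. The ratio of Alox5ap to Alox5 in FPKM was 5.82 in naïve neutrophils, 13.1 in neutrophils after LPS, 59.1 in Ym1+ monocytes, 120 in naïve monocytes and 202 in Ym1- monocytes. For Lta4h to Alox5 the ratio ran in a like order, from 1.67 and 1.79 in naïve neutrophils and neutrophils after LPS to 6.97, 15.1 and 31.5 in Ym1+, naïve and Ym1- monocytes. Ltc4s was listed at 0 in 4 libraries and at 0.396 FPKM in naïve monocytes, on about 1.59 fragments, and was not distinguishable from 0 at this depth in any of them. About 3 fragments of this short transcript would have been an FPKM of 0.469 to 1.05, so a low level could not have been seen.

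Alox15 was near the limit of detection in 3 libraries. It was listed at 3.02 FPKM in naïve neutrophils (95% interval 2.32 to 3.86) and 2.42 in Ym1- monocytes (1.54 to 3.62). In neutrophils after LPS, naïve monocytes and Ym1+ monocytes it was listed at 0.320, 0.138 and 0.0864, on about 5.58, 1.86 and 1.86 fragments. The Ym1- level was 17.6 times that of naïve monocytes (4.18 to 173) and 28.0 times that of Ym1+ monocytes (6.65 to 275), and naïve neutrophils had 9.43 times the level of neutrophils after LPS (3.99 to 27.9).

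In Ym1- monocytes after LPS against naïve monocytes, 7 of the 10 genes passed the filter. Alox15 was higher, beside 2.86% of all genes tested, and Hpgd and Ptgs1 were lower, beside 4.72%. The Hpgd difference was -4.18, or 28.2 times less (95% interval 15.7 to 56.1). The other 4 genes that passed lay between -0.98 and 0.83, and the median of the 7 was -0.45 against -0.0017 over all genes. Ptgs2, Ptges and Ltc4s were below the filter.

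In Ym1+ monocytes after LPS against naïve monocytes, 7 of the 10 passed the filter, none was higher, beside 2.59% of all genes, and Hpgd alone was lower, beside 4.51%. Its difference was -4.96, or 84.1 times less (95% interval 43.2 to 190). The other 6 lay between -0.25 and 0.84, and the median of the 7 was -0.16 against -0.06 over all genes. Both comparisons use the same naïve monocyte library, so the low Hpgd in each is not a repeat of the other. In RNA of sorted populations, fewer cells that express a gene and less RNA of it per cell cannot be told apart.

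**Figure D2:**
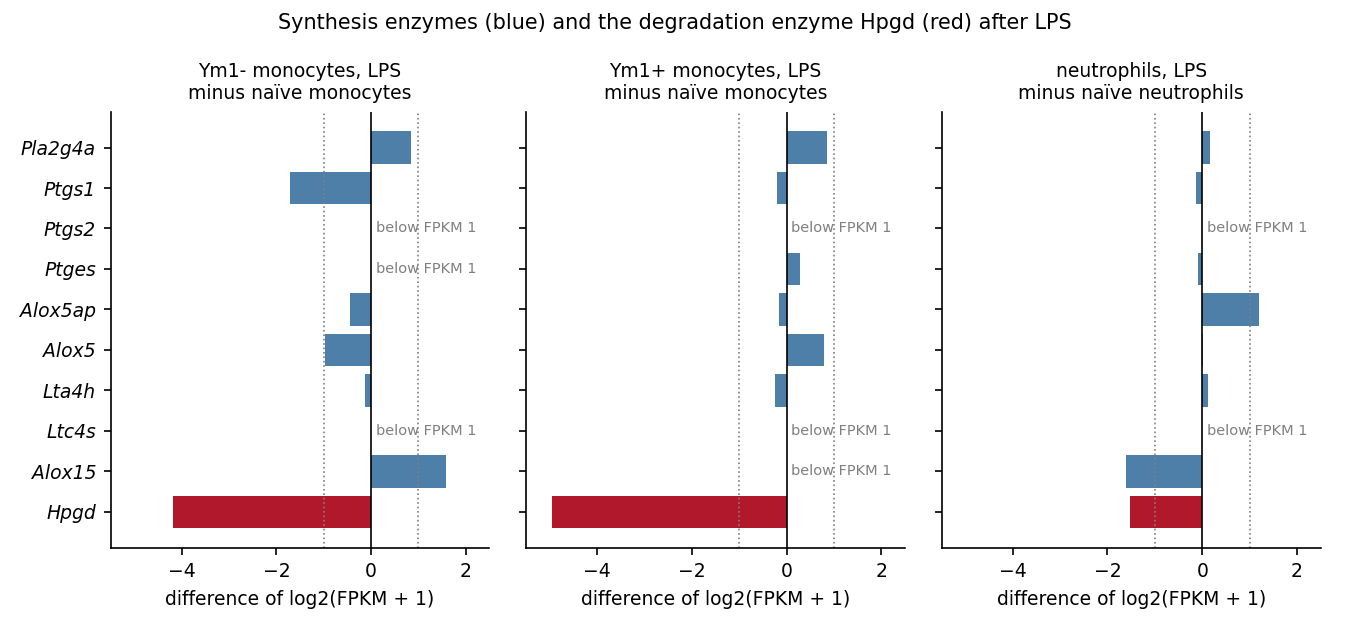
Difference of log2(FPKM + 1) after LPS (horizontal axis) for the 10 genes in Ym1- monocytes, Ym1+ monocytes and neutrophils, with 1 library on each side; dotted lines mark 2-fold, and genes below FPKM 1 in both libraries have no bar. The Hpgd bar reaches -4.18 and -4.96 in monocytes and -1.53 in neutrophils, and the synthesis genes lie between -1.71 and 1.59.

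The order of Ptgs1 and Hpgd differed between naïve monocytes and Ym1+ monocytes after LPS. In naïve monocytes Hpgd had 4.17 times the FPKM of Ptgs1. In Ym1+ monocytes Ptgs1 had 17.2 times the FPKM of Hpgd. In Ym1- monocytes the ratio was 1.66, with overlapping intervals (1.93 to 3.97 for Ptgs1 and 0.856 to 3.0 for Hpgd), so that the order there was not resolved at this depth. In naïve neutrophils the ratio was 13.4, and in neutrophils after LPS Hpgd was listed at 0. Ptgr1, a reductase of the next inactivation step and of leukotriene B4, was listed at 22.7 FPKM in naïve monocytes, 34.6 in Ym1- and 35.5 in Ym1+ monocytes. Its ratio to Hpgd went from 0.477 in naïve monocytes to 20.5 in Ym1- and 62.6 in Ym1+ monocytes, so that the low level after LPS was not shared by every enzyme of prostaglandin breakdown.

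Most dendritic cell markers were, like Hpgd, highest in naïve monocytes. Xcr1 and Siglech were not, both below an FPKM of 1. The 9 dendritic markers summed to 185 FPKM in naïve monocytes, 66.5 in Ym1- and 15.9 in Ym1+ monocytes, and 2.45 and 5.46 in neutrophils after LPS and naïve neutrophils. Cd74, at 117 FPKM, made up much of the naïve sum. Of the 6 markers that passed the filter in Ym1+ against naïve monocytes, 5 were lower. Cd209a, a lectin of monocyte-derived dendritic cells, was listed at 12.7 FPKM in naïve monocytes, 0.0746 in Ym1+ and 0 in Ym1- monocytes, and the class II gene H2-Aa at 22.5, 0.441 and 7.91. In Ym1- monocytes H2-Aa, H2-Ab1, Flt3 and Cd74 stood at 35.1% to 39.3% of their naïve levels. Ciita stood at 70.3%, Cd209a at 0 and Hpgd at 3.55%. The part of such cells in the Hpgd result was not tested.

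**Figure D3:**
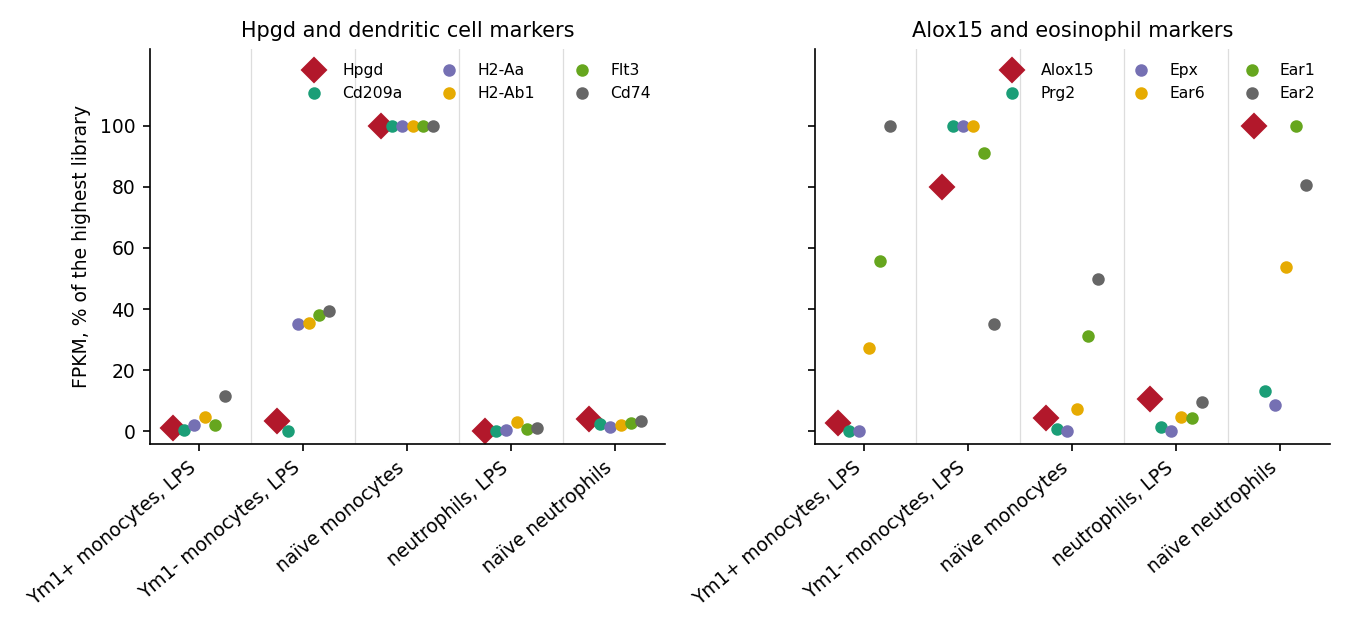
FPKM as a percentage of the highest library (vertical axis) for Hpgd with 5 dendritic cell markers (left) and Alox15 with 5 eosinophil markers (right) in the 5 libraries, 1 point per gene and library. The markers shown are 5 of the 9 in each list. Hpgd and the 5 dendritic markers shown peak in naïve monocytes, whereas Xcr1 and Siglech, not shown, do not. Alox15 is at 80.0% of its highest level in Ym1- monocytes, where Prg2, Epx and Ear6 peak. Siglec5 and Prg3, not shown, peak in neutrophils after LPS and in naïve monocytes.

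Of the eosinophil markers, Prg2, Epx and Ear6 were highest in the Ym1- library. Ear1, Ccr3 and Il5ra, the last at only 0.234 FPKM, were highest in naïve neutrophils, the other library where Alox15 reached an FPKM of 1. Ear2, Siglec5 and Prg3 were highest elsewhere. Prg2, the eosinophil major basic protein, was listed at 28.0 FPKM in Ym1- monocytes, 3.72 in naïve neutrophils, 0.372 in neutrophils after LPS, 0.240 in naïve monocytes and 0 in Ym1+ monocytes. Epx, eosinophil peroxidase, was listed at 1.37 in Ym1- monocytes, 0.118 in naïve neutrophils and 0 in the others. The 9 eosinophil markers summed to 76.6 FPKM in Ym1- monocytes, 84.0 in naïve neutrophils, 13.8 in neutrophils after LPS, 42.6 in naïve monocytes and 81.3 in Ym1+ monocytes, where Alox15 was lowest and Ear2, at 70.5 FPKM, made up much of the sum. The part of eosinophils in the Alox15 values was not tested.

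Between the 2 monocyte subsets after LPS, 8 of the 10 genes passed the filter. Ptgs1 and Alox5 were higher in Ym1+ monocytes, with differences of 1.5 and 1.76, beside 1.38% of all genes, and Alox15 was lower at -1.65, beside 1.18%. The other 5 lay between -0.78 and 0.50, with Hpgd at -0.78 on about 8.53 and 11.4 fragments, and the median of the 8 was 0.15 against -0.06 over all genes. Thus Alox5ap, Lta4h and Pla2g4a, which were the 3 most abundant in both subsets, differed little between them.

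Markers of neutrophils were also higher in Ym1+ monocytes, in 9 of 10 cases. Their sum was 15902 FPKM for the Ym1+ library, 2346 for Ym1- and 1385 for naïve monocytes. Set against neutrophils after LPS, the Alox5 level of Ym1+ monocytes was 5.71% and that of Ptgs1 42.5%, while S100a8 stood at 6.81%, Ltf at 0.931%, Ngp at 1.07%, Cxcr2 at 1.93% and Retnlg at 0.266%. The highest of the 10 markers on this scale in Ym1+ monocytes was Mmp8, at 10.6%. In naïve monocytes Ptgs1 stood at 49.8% and Alox5 at 3.13%, and 8 of the 10 markers were lower than in Ym1+ monocytes. Macrophage markers were higher in 5 of 8 cases, with a sum of 123 FPKM in Ym1+ and 61.9 in Ym1- monocytes. Of platelet markers 1 passed the filter, Pf4, and was higher, and the globin genes Hba-a1 and Hbb-b1 were higher too, Hbb-b1 at 6.56 against 0.00347 FPKM. The part of RNA from any of these cells in the Alox5 and Ptgs1 differences was not tested.

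**Figure D4:**
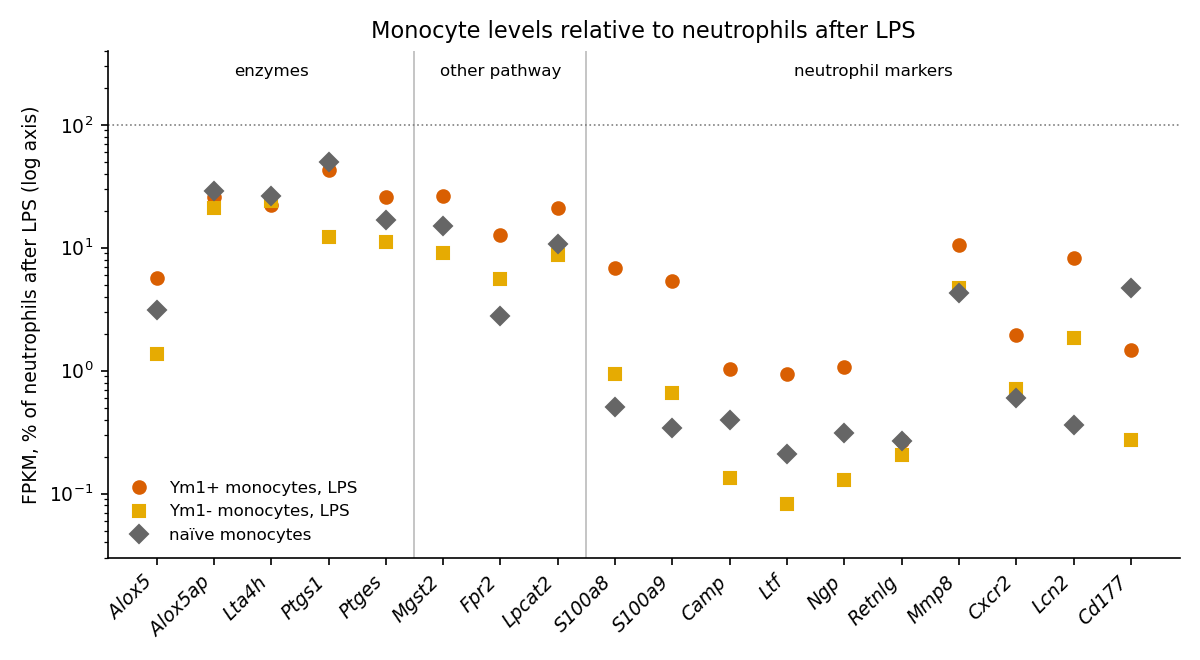
FPKM of 3 monocyte libraries as a percentage of the level in neutrophils after LPS (vertical log axis, dotted line at 100%) for 5 of the enzymes, 3 further pathway genes and 10 neutrophil markers, 1 point per gene and library. Ym1+ monocytes hold 5.71% of the neutrophil level of Alox5 and 42.5% of that of Ptgs1, and between 0.266% and 10.6% of the marker levels.

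In neutrophils after LPS against naïve neutrophils, 8 of the 10 genes passed the filter. Alox5ap was higher, beside 8.96% of all genes, with a difference of 1.20, and Hpgd and Alox15 were lower, beside 5.35%, with differences of -1.53 and -1.61. Hpgd was listed at 0 after LPS, from 1.88 FPKM and about 27.5 fragments in naïve neutrophils, and 3 fragments would have been an FPKM of 0.247. The other 5 genes lay between -0.13 and 0.17, and the median of the 8 was -0.03 against 0.07 over all genes. Of all genes called in this comparison 62.6% were higher, and 51.1% with values rescaled to TPM. Platelet markers also differed between the neutrophil libraries, with 6 of the 7 that passed lower after LPS and a sum of 59.4 FPKM in naïve neutrophils and 6.36 after LPS. Eosinophil markers were lower in 5 of 6, macrophage markers in 4 of 8, with sums of 17.4 FPKM after LPS and 35.4 in naïve neutrophils, and the globin genes Hba-a1 and Hbb-b1 were lower too. The part of any of these in the results was not tested.

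Further along the leukotriene branch, Ggt1 differed more between the neutrophil libraries than any of the 10 genes. Of 77 other genes of the pathway in the files, 38 passed the filter, 3 were higher after LPS and 5 lower, beside 8.96% and 5.35% of all genes. The 3 are close to the share over all genes. Ggt1, a transpeptidase that can convert leukotriene C4 to D4 and also recycles glutathione, was listed at 211 FPKM after LPS and 4.59 in naïve neutrophils, a difference of 5.25, and at 0.335 to 1.47 in the 3 monocyte libraries. Dpep2, a dipeptidase for the next step, was listed at 1.81 after LPS and at 0 in naïve neutrophils, and Ptgr1 at 25.6 and 9.97. Among breakdown enzymes of leukotriene B4, Cyp4f18 was listed at 79.7 FPKM after LPS and 169 in naïve neutrophils, and its relative Cyp4f13 at 3.68 and 10.7. The ratio of Cyp4f18 to Lta4h was 0.202 after LPS and 0.468 in naïve neutrophils. The other lower genes were Mgll, a lipase that yields free arachidonic acid from endocannabinoid, at 9.55 and 22.5 FPKM, the prostaglandin E2 receptor gene Ptger4 at 2.5 and 8.56, and Alox12, a platelet lipoxygenase, at 0.0847 and 2.08. Alox12 did not reach an FPKM of 10 and is named after its values were seen.

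**Figure D5:**
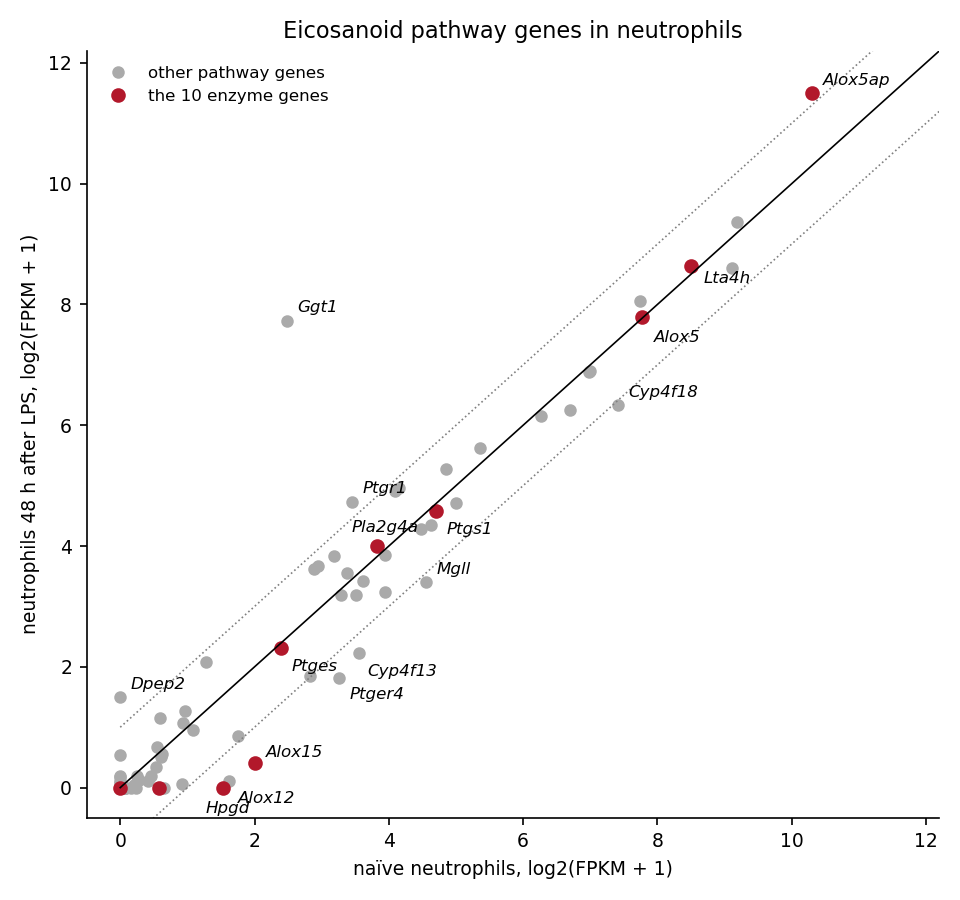
Level of the 10 enzyme genes (red) and the other pathway genes (grey) in naïve neutrophils (horizontal) and neutrophils after LPS (vertical), both as log2(FPKM + 1), 1 point per gene; the solid line is equality and dotted lines mark 2-fold. Ggt1 lies furthest above the line (4.59 and 211 FPKM), Alox5 and Lta4h lie on it, and Hpgd, Alox15 and Alox12 lie below.

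In the monocyte subsets the wider pathway differed at a few genes. Between Ym1+ and Ym1- monocytes, 39 of the 77 passed, with 3 higher and 2 lower, beside 1.38% and 1.18% of all genes, and a median of 0.08. The higher ones were Mgst2, a glutathione transferase that can also form leukotriene C4, at 30.7 FPKM in Ym1+ and 10.5 in Ym1- monocytes, Fpr2, a receptor for formyl peptides and lipoxin, at 82.9 and 36.8, and Lpcat2, an acyltransferase of membrane lipids, at 15.7 and 6.59. All 3 were higher in neutrophils, at 117, 656 and 74.8 FPKM after LPS. The lower ones were the desaturases of arachidonic acid synthesis, Fads1 at 8.10 in Ym1+ and 18.3 in Ym1- monocytes, and Fads2, named after its values were seen, at 0.146 and 1.80.

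Against naïve monocytes, 41 of the 77 passed in both subsets. In Ym1- monocytes 4 were higher and 1 lower, beside 2.86% and 4.72% of all genes, with a median of -0.12. Fads1 was listed at 18.3 FPKM against 3.60 in naïve monocytes, Mgst3 at 56.0 against 25, and Ptger4, the lower one, at 9.27 against 20.8. The other higher genes, Fads2 and the arachidonate-activating Acsl3, stayed under 10 FPKM and are named after their values were seen. In Ym1+ monocytes 1 was higher, Fpr2 at 82.9 against 18.2, and 2 were lower, with a median of 0.02, counts close to the 2.59% and 4.51% of all genes. The lower ones were Ptger4 at 5.41 against 20.8 and Fabp4, a lipid chaperone named after its values were seen, listed at 0 against 1.39. The leukotriene B4 receptor Ltb4r1 (92.9, 58.8 and 66.7 FPKM in Ym1+, Ym1- and naïve monocytes) and the cysteinyl leukotriene receptor Cysltr1 (17.7, 13.8 and 11.9) did not reach 2-fold. Neither did the exporters Abcc1 and Abcc4, nor any phospholipase in the list. Akr1b3 was listed at 0.00283 FPKM or less in all libraries, and no difference was read from it.

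Neutrophils and monocytes differed across most of the 10 genes. In naïve neutrophils against naïve monocytes, 8 passed the filter, 5 were higher (Alox5 at 4.78, Alox15 at 1.82, Lta4h at 1.78, Ptges at 1.67 and Ptgs1 at 1.07), beside 10.8% of all genes, and Hpgd was lower at -4.08, beside 42.7%. In neutrophils against Ym1+ monocytes, both after LPS, 6 passed, 5 were higher (Alox5 at 4.03, Lta4h at 2.16, Alox5ap at 1.96, Ptges at 1.29 and Ptgs1 at 1.15), beside 9.53%, and none was lower, beside 36.4%. The Alox5 ratios were 31.4 (95% interval 26.6 to 37.5) and 17.5 (15.8 to 19.4). The median over all genes was -0.79 and -0.66 in these comparisons, so that the members' medians of 1.37 and 1.62 stand against a shifted background. With median-of-ratios scaling it was -0.16 and -0.14, and 42.6% and 43.7% of all called genes were higher in place of 20.2% and 20.8%. Alox5ap then also passed 2-fold between the naïve libraries, and Ptgs1 did not reach it in either comparison with TPM.

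Of 44 other genes of the pathway that passed between the naïve libraries, 11 were higher and 16 lower in neutrophils, beside 10.8% and 42.7% of all genes, so that the lower ones were no more frequent than over all genes. Those higher were Pnpla8, Pla2g7, Mgll, Mgst1, Mgst2, Ggt1, Ggt5, Cyp4f18, Ltb4r1, Fpr2 and Lpcat2. Ltb4r1 stood at 213 FPKM in naïve neutrophils and 66.7 in naïve monocytes, and Pla2g7, the hydrolase of platelet-activating factor, at 127 and 35.5. The lower ones with an FPKM of at least 10 were Pla2g15, Daglb, Ptges3, Mgst3, Dpep2, Ptgr1, Cyp4f16, Abcc4, Ptger4, Cysltr1, Fads1, Elovl5 and Fabp5. Cysltr1 stood at 0.192 in naïve neutrophils and 11.9 in naïve monocytes, and Mgst3 at 0.911 and 25.

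After LPS, 41 passed between neutrophils and Ym1+ monocytes, with 10 higher and 13 lower, beside 9.53% and 36.4% of all genes. The higher ones were Pnpla8, Mgll, Mgst2, Ggt1, Ggt5, Ptgir, Ltb4r1, Fpr2, Lpcat2 and Mboat7, and Ptgir, the prostacyclin receptor, stood at 18.5 FPKM in neutrophils and 7.59 in Ym1+ monocytes. The lower ones with an FPKM of at least 10 were Ptges3, Tbxas1, Mgst3, Dpep2, Cyp4f16, Cysltr1, Fads1, Elovl5 and Fabp5. Tbxas1, thromboxane synthase, stood at 8.45 in neutrophils and 18.2 in Ym1+ monocytes.

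For each member that reached an FPKM of 10, the genes nearest in pattern were found among 7121 genes, by the Euclidean distance of log2(FPKM + 1), centred on its own mean, over the 5 libraries. For Hpgd these were Ace, Cd209a and Acss1, at distances of 1.36, 1.45 and 1.83, and all 3 peaked in naïve monocytes. For Alox5 they were Lin28a, Ltb and Cd33 at 0.53 to 0.80, and for Ptgs1 Slc11a1, Cnr2 and Nhsl2 at 0.52 to 0.67. For Alox5ap they were Stradb, Tbc1d2 and Trak2 at 0.35 to 0.42, for Lta4h Tnf, Hk3 and Prr13 at 0.18 to 0.23, and for Pla2g4a Nfil3, Pex16 and Eno1 at 0.19 to 0.25. The distance was not scaled by a gene's range over the libraries, which was wide for Hpgd and narrow for Pla2g4a. Distances of different members can therefore not be ranked against each other.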

How the data were processed

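RNA was extracted from sorted BM cells and libraries were prepared with a strand-specific kit. The authors deposited FPKM values for 23234 gene symbols in each of 5 libraries, and their processing notes list the mm9 build, Cufflinks 2.1.1 and TopHat2 2.0.8. No source used here gives the options or the annotation. FPKM divides by transcript length and library size, so that no count model was used. Groups were taken from the sample labels.

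The members and gene lists were chosen with earlier results of these data known. For 6 pairs of libraries, log2(FPKM + 1) was subtracted with Python 3.11.15, numpy 2.4.6 and pandas 2.3.3. Named were all 10 members, pathway genes 2-fold apart with an FPKM of at least 10 in any library, marker genes, and the 3 genes nearest in pattern, small RNA genes left out. Relative depth came from the most frequent ratio between low values of 2 libraries, and absolute depth from GENCODE vM21 transcript lengths, taking the commonest low value as 1 fragment. Exact Poisson intervals (95%) used scipy 1.17.1. The steps were tested on simulated data. Alternatives were a pseudocount of 0.1, no filter, TPM and median-of-ratios scaling.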

Additional observations from a re-analysis of the deposited data

Results flagged for a closer look

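Alox15 differed in opposite directions after LPS in Ym1- monocytes and in neutrophils. In Ym1- monocytes against naïve monocytes the difference of log2(FPKM + 1) was 1.59, from 0.138 to 2.42 FPKM, and in neutrophils after LPS against naïve neutrophils it was -1.61, from 3.02 to 0.320 FPKM. Ym1+ monocytes showed no such increase, with 0.0864 FPKM against 0.138 in naïve monocytes, both below the filter. Of 9 eosinophil markers, 7 passed the filter in Ym1- against naïve monocytes. Prg2, Epx, Ear1 and Ear6 were higher, beside 2.86% of all genes, and none reached 2-fold lower. In neutrophils after LPS 6 passed, with Prg2, Ear1, Ear2, Ear6 and Ccr3 lower, beside 5.35%, and none higher. Short of 2-fold, Ear2 went the other way, at 24.9 FPKM in Ym1- and 35.2 in naïve monocytes. So did Siglec5, at 5.42 in neutrophils after LPS and 4.03 in naïve neutrophils. The part of eosinophils was not tested. With 1 library for each group the difference between these effects was not tested.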

How the results depend on the processing

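The sign of a called member difference could not change under a pseudocount of 0.1, no filter on low values, TPM or median-of-ratios scaling. A pseudocount keeps the order of 2 values and the filter alters none. Library factors of 1.29 to 1.86 for TPM and 0.75 to 1.22 for median-of-ratios scaling are too close to reverse a 2-fold difference. The unchanged signs are therefore no check of the results. With a pseudocount of 0.1 the Hpgd difference was -4.74 in place of -4.18 in Ym1- monocytes, -6.16 in place of -4.96 in Ym1+ monocytes (-5.47 with TPM) and -4.31 in place of -1.53 in neutrophils, where Hpgd was listed at 0 and the value depends on the pseudocount. With that pseudocount 2 genes rather than 1 were lower in Ym1+ than in Ym1- monocytes, Hpgd joining Alox15, and 3 rather than 2 were higher, Ptges joining. With that pseudocount and with TPM, Alox5 joined Hpgd and Ptgs1 as lower in Ym1- than in naïve monocytes, and with TPM 1 rather than 0, Hpgd, was lower in neutrophils than in Ym1+ monocytes after LPS. By the rule used, 6 main values moved and 52 did not. A count moved if it changed by more than 1.5 times or from 0, so the counts of 3 in place of 2 did not. A single-gene difference moved if it left its counting interval. Some of the 52 were fixed in advance. Without the filter no count of members could change, since a 2-fold difference needs an FPKM of at least 1. A check of transcript length used Hpgd alone, whose longest and median lengths are equal. Of the other single-gene differences 43 moved and 80 did not. The ratios between enzymes were not run under alternatives.

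Counts over all genes changed by more than 1.5 times. A pseudocount of 0.1 gave 264 higher and 297 lower genes in place of 145 and 124 between Ym1+ and Ym1- monocytes, 487 and 808 in place of 306 and 506 for Ym1- against naïve monocytes, 820 lower in place of 483 for Ym1+ against naïve monocytes, and 860 lower in place of 513 in neutrophils. TPM gave 228 and 197 in the first, 785 and 732 lower in the next 2, and 5995 lower in place of 3827 in neutrophils against Ym1+ monocytes. Median-of-ratios scaling gave 2168 higher and 2921 lower in place of 1184 and 4678 between naïve neutrophils and naïve monocytes, and 1736 and 2240 in place of 1003 and 3827 in neutrophils against Ym1+ monocytes. Leaving out a library was not possible with 1 per group, and levels under about 3 fragments could not be told from 0.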
